A study of Mus musculus with 10 samples.

Results

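Expression of 8 genes that supply, split, transport or restrain phosphate and pyrophosphate in mineralizing tissue was followed through the differentiation of MC3T3-E1 cells. The genes were picked by name for these roles: Alpl, Phospho1, Smpd3, Enpp1, Ank, Slc20a1, Slc20a2 and Mgp. They are 8 of the 40620 genes in the count table. All 8 were among the 20808 genes that passed the filter on low counts. Enpp1 passed it only through its values at 14d and 21d, whereas the other 7 genes exceeded the minimum in both replicates of every stage.

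Bone mineral is calcium phosphate, and pyrophosphate is an inhibitor of its growth. Tissue-nonspecific alkaline phosphatase on the osteoblast surface and on matrix vesicles hydrolyses pyrophosphate to phosphate, so the enzyme both removes the inhibitor and supplies the mineral ion, while phosphate is also released inside the vesicles from phosphocholine. Pyrophosphate reaches the matrix by hydrolysis of extracellular nucleotides and by export from the cell, and phosphate enters cells through sodium-coupled transporters.

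MC3T3-E1 is a pre-osteoblast line from mouse calvaria, and the cells were of a single subclone, Subclone 4. RNA was sequenced as 51 bp paired reads from 5 stages with 2 replicates each, labelled A and B. Subconfluent and confluent cultures were kept in growth medium with 10% serum, and the 24h, 14d and 21d cultures had received differentiation medium, which supplied β-glycerophosphate at 10 mM and ascorbic acid at 50 µg/ml, for that time after confluence. β-glycerophosphate is itself an organic phosphate that alkaline phosphatase can cleave, and no culture kept in growth medium for 14 or 21 days was analysed here, so culture age, density and medium cannot be told apart in the late comparisons. Nothing in the labels says whether A and B came from separate cultures, and the p-values measure the spread between these samples, which may be technical.

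Promoter sequence is shown for Alpl and Phospho1, whose levels rose and fell together, and for Slc20a1, which moved the opposite way. Each is the 250 bases upstream of a RefSeq transcription start on GRCm38.p6, read 5′ to 3′ on the strand of the gene: chr4:137796385-137796634 on the minus strand for the first Alpl start, chr11:95824250-95824499 on the plus strand for Phospho1, and chr2:129198523-129198772 on the plus strand for the first Slc20a1 start. Capitals mark matches, on either strand, to the RUNX core TGTGGT, to the GC box GGGCGG, to the TATA motif TATAAA or to the AP-1 site TGACTCA.
Alpl: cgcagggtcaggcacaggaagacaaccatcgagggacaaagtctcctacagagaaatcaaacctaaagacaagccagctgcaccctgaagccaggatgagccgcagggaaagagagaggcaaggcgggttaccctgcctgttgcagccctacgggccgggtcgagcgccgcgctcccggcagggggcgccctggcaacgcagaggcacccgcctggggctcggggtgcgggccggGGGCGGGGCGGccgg
Phospho1: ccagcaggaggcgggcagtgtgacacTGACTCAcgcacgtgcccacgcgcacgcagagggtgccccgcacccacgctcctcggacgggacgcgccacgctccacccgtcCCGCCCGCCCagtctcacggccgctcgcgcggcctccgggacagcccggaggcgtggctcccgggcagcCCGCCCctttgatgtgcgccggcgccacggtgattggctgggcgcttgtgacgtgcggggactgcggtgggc
Slc20a1: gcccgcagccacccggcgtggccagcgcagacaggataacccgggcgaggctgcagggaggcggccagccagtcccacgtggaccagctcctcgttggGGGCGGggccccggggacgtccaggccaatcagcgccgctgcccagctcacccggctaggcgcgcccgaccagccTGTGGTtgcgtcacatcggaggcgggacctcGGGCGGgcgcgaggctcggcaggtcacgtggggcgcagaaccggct

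Among 32851 upstream windows of the same length, 14.0% held the RUNX core, 32.7% the GC box, 12.4% the TATA box and 4.5% the AP-1 site. The Alpl window held 2 GC boxes that share a base, beginning 15 and 10 bases before the start. The Phospho1 window held 3 GC boxes, 2 of which overlap, and an AP-1 site 224 bases before the start. The Slc20a1 window held GC boxes at 152 and 46 bases and a RUNX core at 77 bases. The upstream windows of Enpp1, with a RUNX core and a GC box, and of Ank, with 2 overlapping GC boxes, were searched too, as were those of the second starts of Alpl, which held a TATA box, and Slc20a1, which held a GC box. Sequence was used for 5 of the 8 genes; Slc20a2, Smpd3 and Mgp had no entry. These matches describe the letters only.

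The libraries held 44736156 to 162939333 counts. Levels are given in RPKM, reads scaled to gene length and library size. Replicates A and B differed most at 24h, where the chi-square per degree of freedom between their counts was 743.7, against 40.8 to 92.0 at the other stages. The first 3 stages carried one pair of library indices and 14d and 21d another, so a difference between 24h or earlier and 14d or later cannot be told apart from this split. Comparisons of confluent with subconfluent, 24h with confluent and 21d with 14d lay within it. They may still cross sequencing runs, which the column headers do not name. The headers give confluent A and 24h A the same index and lane number, and likewise 14d A and 21d A. Such libraries could not be told apart in a shared lane. Markers of the osteoblast (Runx2, Sp7, Col1a1, Col1a2, Ibsp, Bglap) were above 1 RPKM at every stage, 6 of 6, and their sum was highest at 14d, at 19540 to 21269 RPKM. Of 6 chondrocyte markers 2 or 3 exceeded 1 RPKM at each stage, and their sum was also highest at 14d, at 237 to 244 RPKM, against 47.4 to 64.1 at 24h. Col2a1 and Sox9 made up nearly all of it, and Acan and Matn1 stayed below 0.1 RPKM. Endothelial markers summed to at most 0.107 RPKM. Of 6 macrophage and blood markers 3 exceeded 1 RPKM at every stage, Lyz2, Itgam and Csf1r (1.83 to 3.19 RPKM), and the list summed to 18.2 to 29.1 RPKM. Cd68 was at 0.464 to 0.936 RPKM, and Ptprc and Adgre1 were below 0.1 RPKM in every library. Adipocyte markers summed to 0.0590 to 2.75 RPKM, highest at 21d, and smooth muscle markers to 37.1 to 55.1 RPKM, nearly all from Smtn. The part of these marker changes in the results was not tested, and in a bulk sample fewer cells of a type and less RNA per cell cannot be told apart.

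A gene was called changed when edgeR's quasi-likelihood test with Benjamini-Hochberg adjustment over all tested genes gave an adjusted p under 0.05 and the change exceeded 2-fold. Over the 5 stages 7 of the 8 genes varied, with adjusted p values from 3.1e-06 for Phospho1 to 0.0026 for Slc20a2, against 48.9% of all tested genes. Enpp1 was among the 7 (adjusted p = 0.0015 by edgeR's quasi-likelihood test). The filter kept it for its late values, so its pass is given as a description. Ank did not pass (adjusted p = 0.091).

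Between subconfluent and confluent cultures Alpl, Phospho1 and Smpd3 were called higher, 3 of the 8 genes, where 1.43% of all tested genes were called, 209 of those 297 upward. Between confluent and 24h cultures Alpl and Mgp were called higher, 2 of the 8, against 1.76% of all genes called higher and 2.13% in either direction. From 24h to 14d Alpl, Phospho1, Smpd3 and Enpp1 were called higher, 4 of the 8 or 3 without Enpp1, which the filter kept for its late values, against 4.47% called higher and 5.98% in either direction. From 14d to 21d Alpl, Phospho1 and Smpd3 were called lower, 3 of the 8, against 2.45% of all genes called lower and 3.97% in either direction.

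The wider comparisons share libraries with these steps. At 14d against confluent, Alpl, Phospho1 and Smpd3 were called higher and Slc20a1 lower, 4 of the 8, where 9.15% of all genes were called higher, 3.85% lower and 13.0% in either direction. At 21d against subconfluent, 5 genes were called higher (Alpl, Phospho1, Smpd3, Mgp and, kept by the filter for its late values, Enpp1) and Slc20a1 lower, where 16.3% of all genes were called higher, 11.3% lower and 27.6% in either direction. The median log2 fold change of the 8 genes was 1.74 there, against 0.04 over all tested genes. That median includes Enpp1 (3.75) and is given as a description. Scaling by library size alone moved the all-gene median at 14d against confluent from 0.03 to -0.20 and the share of calls that were higher from 70.4% to 49.8%; at 21d against subconfluent that share moved from 59.1% to 48.9%, and at 24h against confluent from 82.8% to 71.7%. Of the 8 genes only Ank, at 14d against 24h, changed direction under this scaling.

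**Figure D1:**
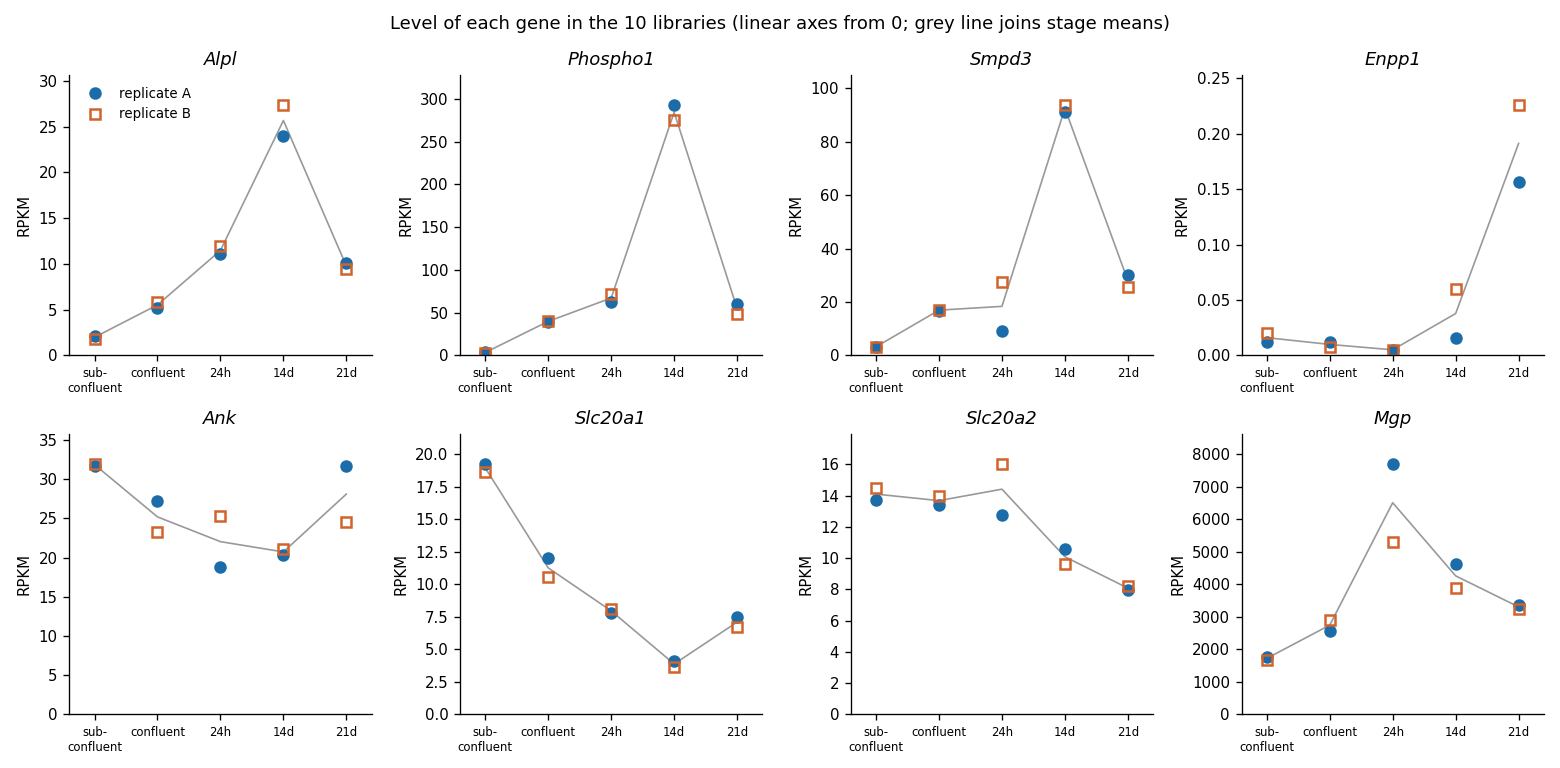
RPKM of each of the 8 genes (vertical axes, linear from 0, with a different range for each gene) in the 2 replicates of the 5 stages; the grey line joins the stage means. Alpl, Phospho1 and Smpd3 peak at 14d, at 25.7, 285 and 92.5 RPKM on average, Slc20a1 is lowest there at 3.86, Mgp is highest at 24h and Enpp1 at 21d.

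Alpl (chr4:137741733-137796384, minus strand, mm10) encodes the tissue-nonspecific alkaline phosphatase. It stood at 2.12 and 1.85 RPKM in the subconfluent replicates A and B, 5.15 and 5.89 in confluent, 11.0 and 11.9 at 24h, 24.0 and 27.4 at 14d, and 10.1 and 9.48 at 21d. No replicate of one stage overlapped those of the stage before it. The 3 steps upward were of similar size on the log2 scale, 1.45 ± 0.12 (SE), 1.14 ± 0.12 and 1.29 ± 0.12. From 14d to 21d the level fell by 1.47 ± 0.12, with adjusted p = 6.4e-04 by edgeR's quasi-likelihood test. In RPKM this put it below both 24h replicates, but 21d was not tested against 24h. Leaving out 24h replicate A or B gave 1.15 and 1.16 for the 24h step. With only the confluent and 24h libraries in the fit, the step was not called (log2 fold change 1.15, adjusted p = 0.18). That fit called 0 of all 19562 genes.

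Phospho1 (chr11:95824499-95832140, plus strand) encodes the phosphatase that releases phosphate from phosphocholine and phosphoethanolamine inside matrix vesicles. It was counted at 137 and 40 reads, or 3.47 and 3.37 RPKM, in the subconfluent replicates. It then stood at 39.3 and 40.3 RPKM in confluent, 62.0 and 72.3 at 24h, 293 and 276 at 14d, and 60.7 and 49.0 at 21d. In RPKM both 21d replicates were below both 24h replicates and above both confluent ones. The total count exceeded the read number used for RPKM 1.601 times in 24h A and 1.485 times in 21d A. The order of 62.0 at 24h and 60.7 at 21d therefore depends on the scaling, and 21d was not tested against 24h.

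The largest single step of Phospho1 came before differentiation medium was given. Confluent cultures were 11.4-fold above subconfluent ones (log2 fold change 3.51 ± 0.13, adjusted p = 2.5e-04 by edgeR's quasi-likelihood test). The 24h step was smaller, 0.84 ± 0.11 on the log2 scale (adjusted p = 0.0084), and under 2-fold. It was 0.90 and 0.80 without 24h replicate A or B, and 0.82 (adjusted p = 0.078) and 0.86 (adjusted p = 0.066) without confluent replicate A or B. The rise to 14d was 2.21 ± 0.11 and the fall to 21d was -2.45 ± 0.12, the widest fall of the 8 genes. At 21d the level was still 17.3-fold above subconfluent.

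Reads of Phospho1 may include those of its neighbours. In the GENCODE vM21 annotation 1708 of its 2029 exon bases are shared with Abi3, an actin regulator gene on the opposite strand, and 1818 with Zfp652, a zinc finger gene on the same strand, which leaves 211 bases of its own. The count table gives Phospho1 a length of 383 bases, and its RPKM is not comparable per length with that of other genes. Whether strand was used in counting is not given in the sources used here, so reads of Phospho1 and Abi3 cannot be told apart. Abi3 moved nearly as Phospho1 did, with log2 fold changes of 2.90, 0.83, 2.21 and -2.35 in the 4 successive steps. Phospho1 made up 19.3% and 22.3% of the reads of the pair in the subconfluent replicates and 26.6% to 30.5% in the other 8 libraries. Zfp652 stayed between 3.09 and 4.59 RPKM.

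**Figure D2:**
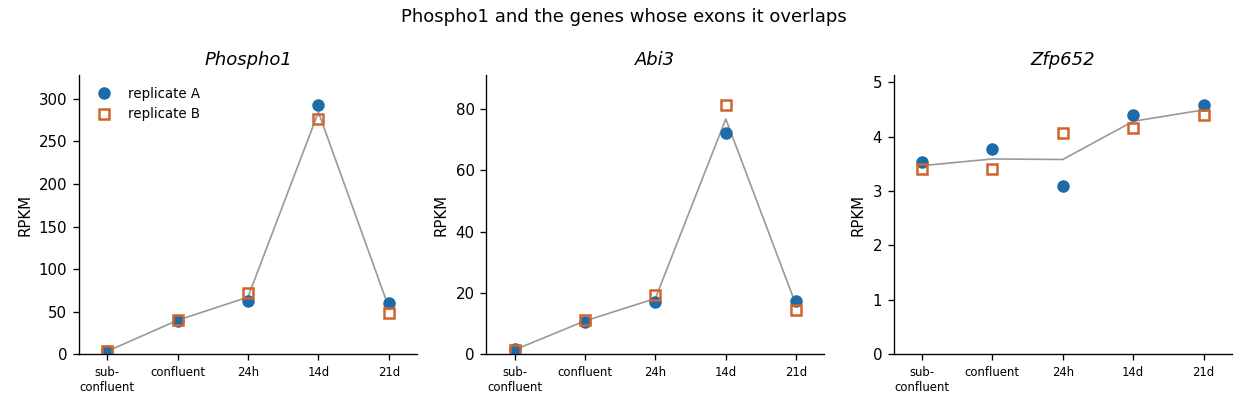
RPKM (vertical axes, linear from 0) of Phospho1 and of the genes whose exons it overlaps, Abi3 and Zfp652, in the 2 replicates of each stage; grey lines join stage means. Phospho1 and Abi3 share a peak at 14d, whereas Zfp652 stays between 3.09 and 4.59 RPKM.

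Smpd3 (chr8:106252548-106337988, minus strand) encodes neutral sphingomyelinase 2, which cleaves sphingomyelin to ceramide and phosphocholine, the substrate of Phospho1. Its level was 3.16 and 3.29 RPKM in the subconfluent replicates, 16.8 and 17.1 in confluent, 9.22 and 27.5 at 24h, 91.2 and 93.8 at 14d, and 30.3 and 25.8 at 21d. Replicates were close at every stage but 24h, where A lay below and B above both confluent values. The 24h libraries therefore gave no common direction, and the fitted 24h change of 0.18 ± 0.39 on the log2 scale (adjusted p = 0.81) became 0.74 without replicate A and -0.72 without replicate B.

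Confluent cultures had 5.16-fold more Smpd3 than subconfluent ones (log2 fold change 2.37 ± 0.41, adjusted p = 0.029 by edgeR's quasi-likelihood test), and 14d had 5.60-fold more than 24h (2.48 ± 0.41, adjusted p = 0.0084). From 14d to 21d it fell by 1.80 ± 0.40 (adjusted p = 0.032). The 24h pair widened the error of all of these. Without the 24h libraries the confluent and the 21d step had adjusted p values of 1.7e-04 and 9.3e-05. With both 24h libraries kept, leaving out any 1 of the other 8 took both steps out of the calls, with adjusted p values of 0.07 to 0.2 and 0.064 to 0.2. The rise from 24h to 14d was lost without 14d replicate B (adjusted p = 0.054), and was 1.92 on the log2 scale without 24h replicate A and 3.35 without 24h replicate B. Smpd3 shares 247 exon bases with Prmt7 on the opposite strand, and Prmt7 also rose from 24h to 14d, by 1.10 ± 0.10, and fell to 21d, by 1.39 ± 0.11.

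Enpp1 (chr10:24637914-24712159, minus strand) encodes the ectonucleotide pyrophosphatase that makes extracellular pyrophosphate from ATP. It was close to the limit of detection. The libraries held 12 and 6 Enpp1 reads in subconfluent, 4 and 8 in confluent, 4 and 4 at 24h, 14 and 19 at 14d, and 53 and 175 at 21d. In RPKM these were 0.0120 and 0.0200, 0.0122 and 0.00766, 0.00487 and 0.00524, 0.0161 and 0.0595, and 0.157 and 0.226. An exact Poisson interval of 95%, which covers counting error only, runs from 1.09 to 10.24 reads for a count of 4. The 21d replicates were above all other libraries, and subconfluent and confluent values overlapped.

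Enpp1 rose from 24h to 14d by 2.92 ± 0.70 on the log2 scale (adjusted p = 0.031 by edgeR's quasi-likelihood test). The call was lost in 8 of the 10 fits that left out 1 library, all but those without 24h replicate B or 14d replicate A, with adjusted p values of 0.053 to 0.13. The change was 1.74 without 14d replicate B. The call was also lost with only the 24h and 14d libraries (adjusted p = 0.2) and with limma on log2(RPKM + 1) and log2(RPKM + 0.1), where the change was 0.05 and 0.37. The change from 14d to 21d was 2.33 ± 0.62 (adjusted p = 0.06) and missed the threshold. It missed in 14 of 20 alternatives and passed in 6, among them DESeq2 (adjusted p = 0.021) and the fit without 24h samples (0.034). The change was 1.59 to 3.51 leaving out 1 library, highest without 14d replicate B. Among the other alternatives it was 0.20 at the lowest. The 21d level exceeded the subconfluent one by 3.75 ± 0.67 (adjusted p = 0.0027). Enpp1 was tested only because it is high at 14d and 21d, and its differences from the earlier stages are given as a description. Even at 21d, the mean of 0.191 RPKM was far below the 28.1 RPKM of Ank.

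Ank (chr15:27466677-27594909, plus strand) encodes the membrane protein through which pyrophosphate or its nucleotide source leaves the cell. Its level was 31.8 and 32.0 RPKM in subconfluent, 27.2 and 23.2 in confluent, 18.8 and 25.3 at 24h, 20.3 and 21.2 at 14d, and 31.8 and 24.5 at 21d. It had the smallest ratio of highest to lowest stage mean of the 8 genes, with means between 20.7 and 31.9 RPKM. No comparison gave an adjusted p under 0.05. The values nearest to it were -0.37 ± 0.16 for confluent against subconfluent (adjusted p = 0.29) and 0.36 ± 0.16 for 21d against 14d (adjusted p = 0.21).

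Slc20a1 (chr2:129198764-129211616, plus strand) and Slc20a2 (chr8:22476788-22569612, plus strand) encode the type III sodium-phosphate cotransporters PiT-1 and PiT-2. Its level was 19.3 and 18.6 RPKM in subconfluent, 12.0 and 10.5 in confluent, 7.77 and 8.12 at 24h, 4.08 and 3.64 at 14d, and 7.47 and 6.70 at 21d, so that no stage overlapped the one before it.

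The fall of Slc20a1 from subconfluent to confluent was -0.78 ± 0.10 on the log2 scale (adjusted p = 0.0081 by edgeR's quasi-likelihood test) and that from 24h to 14d was -0.91 ± 0.10 (adjusted p = 0.0015). The 24h step was -0.41 ± 0.10 (adjusted p = 0.057) and passed without 24h replicate B (-0.37, adjusted p = 0.033). From 14d to 21d the level rose by 0.80 ± 0.10 (adjusted p = 0.0027). The confluent step had an adjusted p of 0.066 to 0.089 without subconfluent replicate A or B or confluent replicate B. None of these single steps reached 2-fold in this fit, though the 14d step did with library size alone (-1.01) and with limma on log2(RPKM + 0.1) (-1.02), and 14d was 2.51-fold below confluent and 21d 2.47-fold below subconfluent. The opposite-strand transcript 9830144P21Rik, which shares 452 exon bases with Slc20a1 and had 180.6 reads on average against 2907.8, was also lower at 14d than in confluent cultures (-1.12 ± 0.33).

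Slc20a2 changed late. It stood at 13.7 and 14.5 RPKM in subconfluent, 13.4 and 14.0 in confluent and 12.8 and 16.0 at 24h, which all overlapped. It was lower at 14d, at 10.6 and 9.62 RPKM, and lower again at 21d, at 7.94 and 8.21. Both late steps passed the adjusted p without reaching 2-fold, at -0.38 ± 0.10 (adjusted p = 0.035 by edgeR's quasi-likelihood test) and -0.39 ± 0.10 (adjusted p = 0.047). Neither pass was stable to leaving out 1 library. The 14d step lost it in 6 of 10 such fits (adjusted p = 0.063 to 0.21, without either confluent, 14d or 21d replicate), and the 21d step in 8 of 10 (0.083 to 0.25, all but those without a 24h replicate). Slc20a2 at 14d against confluent did not pass (-0.22 ± 0.10, adjusted p = 0.12 by edgeR's quasi-likelihood test). Alternatives that kept both replicates of each stage used gave -0.45 to -0.22, and whether the change passed depended on the fit. At 21d against subconfluent Slc20a2 passed, at -0.69 ± 0.10 (adjusted p = 8.9e-04), under 2-fold. Smim19, which shares 95 exon bases with Slc20a2 on the opposite strand, was higher at 21d than in subconfluent cultures by 1.06 ± 0.13. The summed level of both transporters, which depends on the gene lengths used, was 33.0 and 33.1 RPKM in subconfluent cultures. It was 14.6 and 13.3 at 14d and 15.4 and 14.9 at 21d.

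Mgp (chr6:136872435-136875823, minus strand) encodes matrix Gla protein, a vitamin K-dependent inhibitor of calcification. It was the most abundant of the 8 transcripts per length in every library. Its level was 1762 and 1675 RPKM in subconfluent, 2567 and 2910 in confluent, 7707 and 5303 at 24h, 4625 and 3886 at 14d, and 3367 and 3234 at 21d. At 24h its mean of 6505 RPKM ranked 7 of 40602 genes. Both 24h replicates were above all others, although they differed widely from each other. The 24h rise was 1.35 ± 0.21 on the log2 scale (adjusted p = 0.014 by edgeR's quasi-likelihood test). It was 0.99 (adjusted p = 0.0042), just under 2-fold, without 24h replicate A. Without confluent replicate A or B it had adjusted p values of 0.12 and 0.087. The declines to 14d and 21d, at -0.50 ± 0.20 (adjusted p = 0.14) and -0.44 ± 0.20 (adjusted p = 0.25), did not pass. The decline to 14d rested on the 24h library used, at -0.83 (adjusted p = 0.0014) without 24h replicate B and -0.15 (adjusted p = 0.4) without A, and it passed with library size alone (-0.57, adjusted p = 0.032). The 21d level was 2.08-fold above subconfluent (adjusted p = 0.0042), a change of 0.98 on the log2 scale without subconfluent replicate B.

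**Figure D3:**
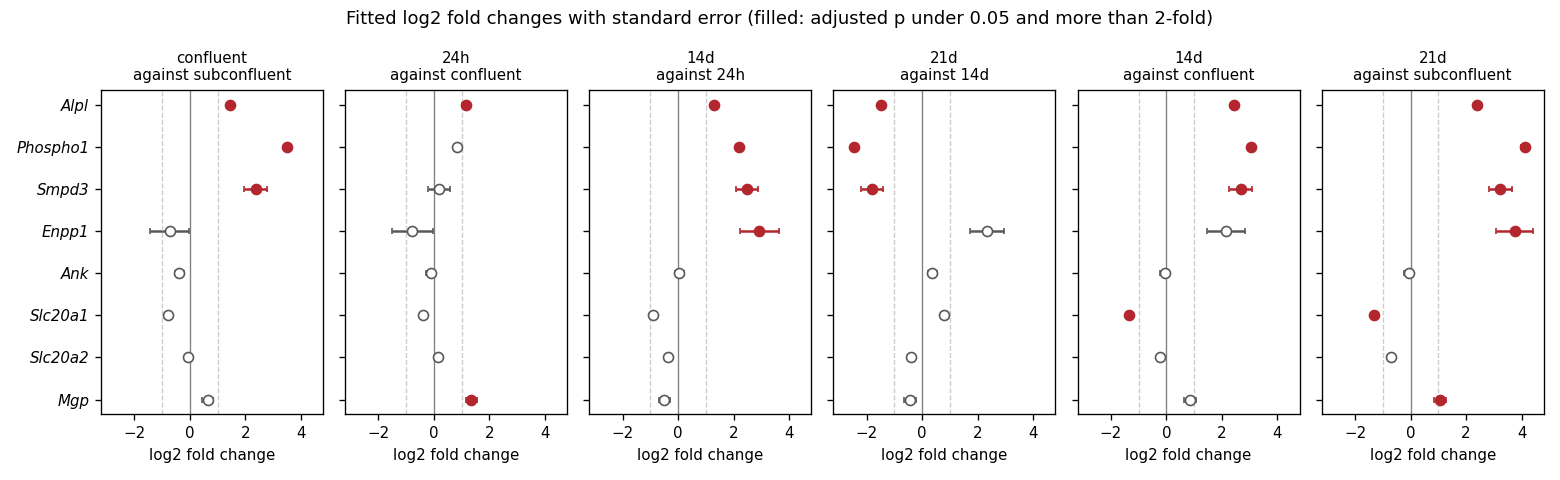
Fitted log2 fold change (horizontal axes) with its standard error (bars) for the 8 genes in the 6 comparisons; filled points were called (adjusted p under 0.05 and more than 2-fold, edgeR) and dashed lines mark 2-fold. The points of Alpl, Phospho1 and Smpd3 lie to the right of 0 up to 14d and to the left at 21d against 14d, and those of Ank lie within 2-fold of 0 throughout.

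Ratios within a library do not depend on its scaling. Each was tested over the 5 stages by an exact permutation F test on log2 ratios (945 arrangements, smallest possible p = 0.0011), adjusted over the 4 ratios. The transporter ratio Slc20a1 to Slc20a2 was 1.40 and 1.29 in subconfluent cultures, 0.895 and 0.753 in confluent, 0.608 and 0.506 at 24h and 0.387 and 0.379 at 14d. It was back at 0.940 and 0.816 at 21d (exact permutation p = 0.0021, adjusted p = 0.0042). Slc20a1 thus supplied 56.3% to 58.4% of the summed transporter level in subconfluent cultures and 27.5% to 27.9% at 14d. The gene lengths behind RPKM were 77.9% of the GENCODE vM21 exon bases for Slc20a1 and 54.9% for Slc20a2. The absolute size of these shares, and of every ratio here, depends on such lengths. The change of a ratio between stages does not.

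The ratio of the inhibitor to the phosphatase, Mgp to Alpl, was 831 and 906 in subconfluent cultures and lowest at 14d, at 193 and 142. At 21d it was 334 and 341 (exact permutation p = 0.0032, adjusted p = 0.0042). The ratio at 24h, 698 and 445, enclosed the confluent values of 498 and 494.

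Alpl to Enpp1 sets the enzyme that splits pyrophosphate against the one that makes it. It was 176 and 92.3 in subconfluent cultures, 423 and 769 in confluent and 2268 and 2274 at 24h. It was 1490 and 460 at 14d and lowest at 21d, at 64.3 and 41.9 (exact permutation p = 0.0053, adjusted p = 0.0053). Every value but those of 21d rests on fewer than 20 Enpp1 reads. Both 24h values rest on 4 reads, with a 95% Poisson interval of 1.09 to 10.24, so their closeness understates the counting error. The late rise of Enpp1 enters this ratio, and its p-value is likewise given as a description. Alpl to Phospho1 was 0.611 and 0.549 in subconfluent cultures and between 0.0817 and 0.194 in the other 8 libraries (exact permutation p = 0.0021, adjusted p = 0.0042), with the limits on Phospho1 reads.

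**Figure D4:**
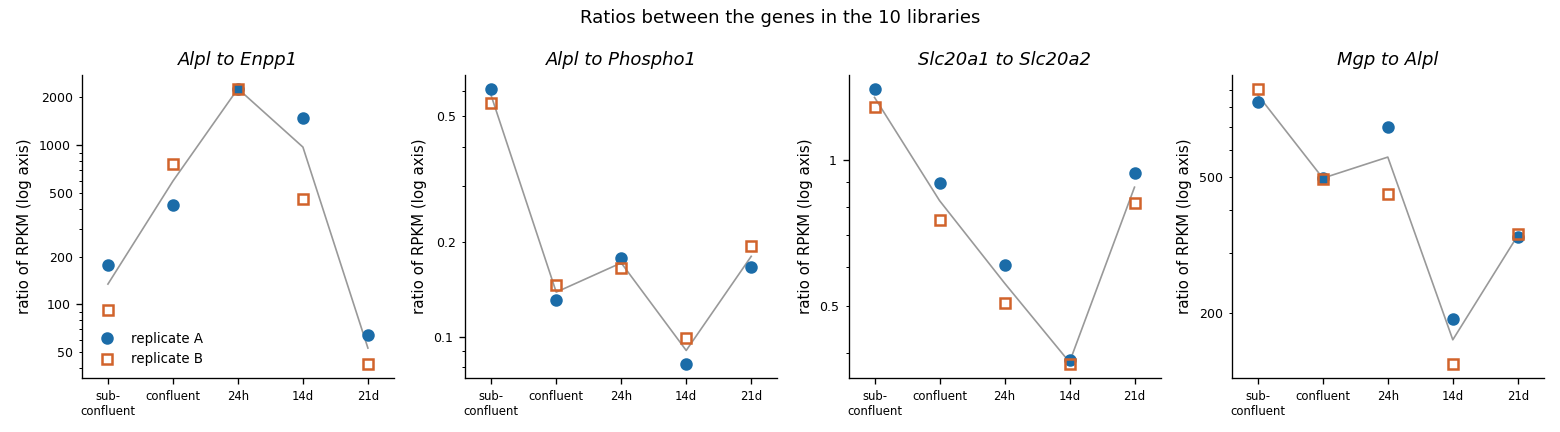
Ratio of RPKM between pairs of the genes (vertical axes, logarithmic) in the 2 replicates of each stage; grey lines join stage means. Slc20a1 to Slc20a2 falls from 1.40 and 1.29 to 0.387 and 0.379 at 14d and rises at 21d, Mgp to Alpl is lowest at 14d, and Alpl to Enpp1 is highest at 24h and lowest at 21d.

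The patterns over the 10 libraries, as Pearson's r of log2 CPM, grouped the genes as follows. These values describe 10 points that share stage, library depth and index set. Alpl correlated with Phospho1 at 0.98, with Smpd3 at 0.94 and with Slc20a1 at -0.99. Enpp1 and Slc20a2 correlated with each other at -0.94, and Ank correlated with no other member beyond -0.71, its value with Mgp. Enpp1 had as few as 4 reads in a library, and the filter kept it for its late values.

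Among 11985 genes of at least 5 CPM on average, the patterns most like Alpl were those of Panx3, a pannexin channel gene (0.996), and Sp7, which encodes osterix (0.995). For Phospho1 they were Abi3 (0.998) and Fam102a (0.994), and for Smpd3 Mef2c (0.990) and Nhsl1 (0.984). Reads of Abi3 and Phospho1 cannot be told apart, so the place of Abi3 may come from shared reads, which was not tested. Slc20a1 was nearest to Pcgf5 (0.989) and Gm9892 (0.985), and Slc20a2 to 1700025G04Rik (0.977) and Prmt5 (0.973). Ank was nearest to Rest (0.964) and Mafk (0.939), Enpp1 to Vegfa (0.964) and Nampt (0.955), and Mgp to Hist1h2al (0.982) and Plb1 (0.978). The values for Enpp1 carry the limits on its reads and filter pass.

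Beyond the 8 genes, 43 genes of the same pathways were listed in 8 groups, and 31 of them were tested. At 21d against subconfluent 9 were called higher and 1 lower, with a median log2 fold change of 0.36 against 0.04 over all genes, of which 16.3% were called higher and 11.3% lower. At 14d against confluent 7 were called higher and 0 lower, where 9.15% and 3.85% of all genes were. At an adjusted p under 0.05 by edgeR's quasi-likelihood test, 12 were higher and 2 lower there, beside 3508 and 3180 of the 20808 genes tested. The counts of higher genes in both comparisons, and the median, include Enpp6, Abcc6 and Ucma. The filter kept these genes for their later values, so their calls and the median are given as a description. The other steps gave 2 higher for confluent (1.43% of all genes called in either direction) and 2 higher for 24h (1.76% higher). For 14d against 24h 3 were called higher, Enpp6 among them (4.47% higher). For 21d against 14d 1 was called higher and 1 lower, where 3.97% of all genes were called in either direction.

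Of 12 sphingomyelin and phosphocholine genes 11 were tested, and 3 were called higher at 14d than in confluent cultures, where 9.15% of all genes were. Sgms2, a sphingomyelin synthase, was at 1.54 to 2.56 RPKM in the first 6 libraries, at 36.8 and 39.3 at 14d and at 11.6 and 9.72 at 21d. It rose 17.6-fold from 24h to 14d (log2 fold change 4.13 ± 0.13) and fell by 1.91 ± 0.12 to 21d. Enpp6, a choline-specific phosphodiesterase, had 2 to 13 reads in each of the first 6 libraries. The filter kept it for its values at 14d and 21d, so its calls are given as a description. At 14d it had 332 and 101 reads, or 0.837 and 0.695 RPKM, a rise of 5.04 ± 0.27 from 24h. Slc44a1, a choline transporter, was at 15.5 and 14.9 RPKM in confluent cultures and 37.4 and 41.2 at 14d (1.59 ± 0.12). Smpd1, Smpd2 and Smpd4, the other sphingomyelinases listed, were called in no comparison, although at 21d against subconfluent Smpd4 was lower, at -0.95 ± 0.11 (adjusted p = 3.6e-04 by edgeR's quasi-likelihood test) and Smpd2 higher by 0.91 ± 0.18 (adjusted p = 0.0045).

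Of 9 genes of ectonucleotidases and ATP release 5 were tested, and 4 were called higher at 21d against subconfluent, where 16.3% of all genes were called higher. All 5 were higher at an adjusted p under 0.05, as were 5671 of the 20808 genes tested. Enpp2, which encodes the lysophospholipase autotaxin, was at 0.144 and 0.243 RPKM in subconfluent cultures, 0.606 and 0.556 in confluent and 6.15 and 6.51 at 24h. It was at 5.60 and 5.11 at 14d and 13.0 and 13.1 at 21d. The 24h step was 3.54 ± 0.20 on the log2 scale (adjusted p = 4.6e-04 by edgeR's quasi-likelihood test). Nt5e, the ecto-5′-nucleotidase that releases phosphate from AMP, was at 0.439 and 0.414 RPKM in subconfluent cultures and 12.3 and 13.4 at 14d. It remained at 16.2 and 14.7 at 21d, when Alpl, Phospho1 and Smpd3 had fallen, and was 39.0-fold above subconfluent there. Enpp4 was called higher at 21d against subconfluent (1.09 ± 0.21). Abcc6, whose product mediates ATP release, was called in the same comparison and at 14d against confluent, but had 3 and 0 reads in subconfluent and 0 and 8 in confluent cultures. Its late libraries held 14 to 36 reads. The filter kept Abcc6 for its values at 24h and later, so its calls, counted above, are given as a description.

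The intracellular pyrophosphatases Ppa1 and Ppa2, which split pyrophosphate within the cell, were both lower at 14d than at 24h, with adjusted p values of 0.0097 and 0.038 by edgeR's quasi-likelihood test. Ppa1 was at 47.1 and 47.6 RPKM in subconfluent cultures, 19.9 in both replicates at 14d and 13.5 and 12.8 at 21d (-1.73 ± 0.14 at 21d against subconfluent, the 1 call downward). Among genes of Gla carboxylation, the vitamin K-dependent modification of Mgp, Vkorc1 rose from 59.3 and 62.2 RPKM in subconfluent to 129.5 and 140.5 RPKM at 21d (1.27 ± 0.21). Ggcx, the carboxylase itself, was higher by 0.77 ± 0.13 there (adjusted p = 0.0019) without reaching 2-fold. Ucma, which encodes another Gla protein, was called at 14d and 21d but had 1 and 2 reads in subconfluent cultures. The filter kept it for its later values, so these calls are given as a description.

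No gene was called among the zinc transporters Slc30a5, Slc30a6 and Slc30a7, which load alkaline phosphatase, the phosphate carriers Xpr1 and Slc25a3, or the annexins Anxa2, Anxa5 and Anxa6 of matrix vesicles. At 21d against subconfluent all 3 annexins had an adjusted p under 0.05 without reaching 2-fold, with Anxa2 (-0.51 ± 0.14) and Anxa5 (-0.54 ± 0.10) lower and Anxa6 (0.36 ± 0.09) higher, and so did Slc30a7 (-0.37 ± 0.11). Phospho2, a homologue of Phospho1, was higher at 14d than in confluent cultures by 0.80 ± 0.14 (adjusted p = 0.005 by edgeR's quasi-likelihood test), under 2-fold. The kidney and gut phosphate carriers Slc34a1, Slc34a2 and Slc34a3 and the other alkaline phosphatases Alpi, Akp3 and Alppl2 did not pass the filter on low counts.

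**Figure D5:**
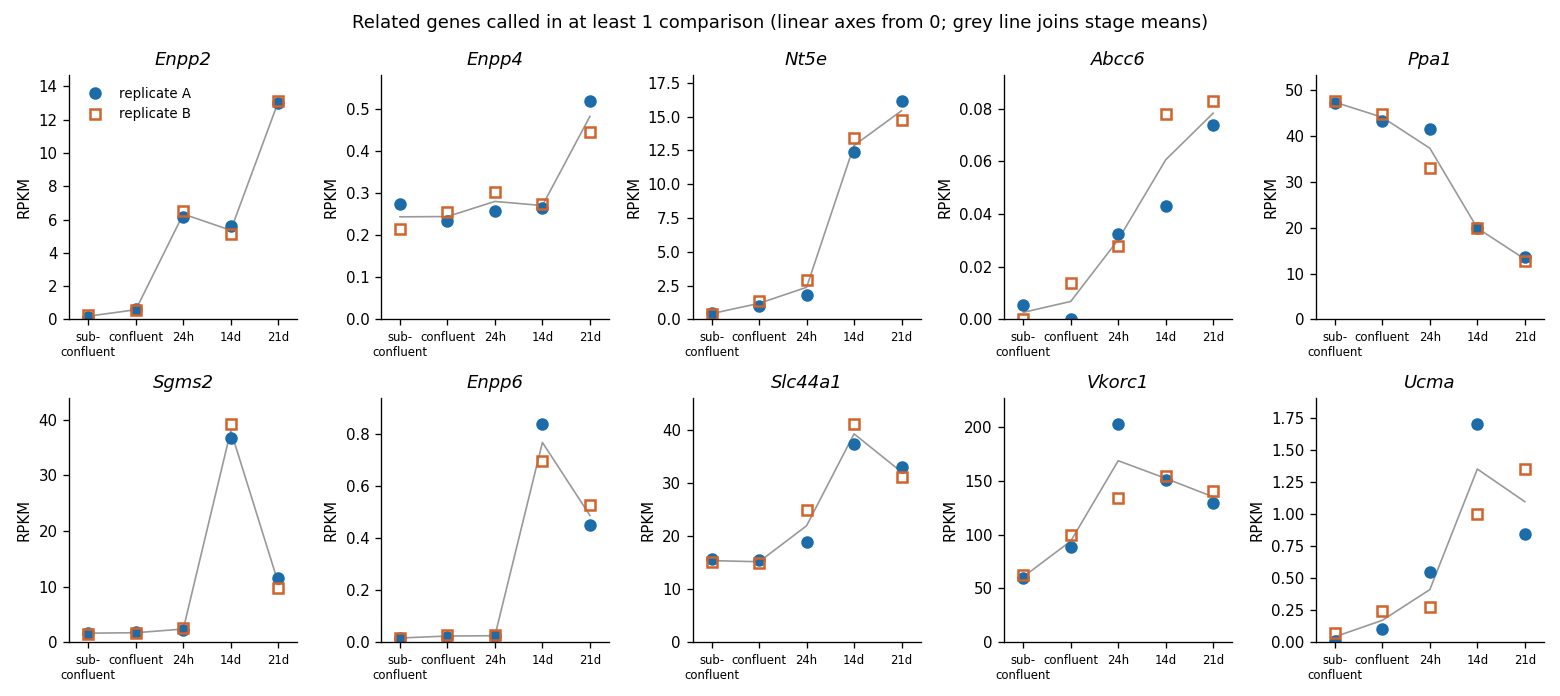
RPKM (vertical axes, linear from 0, with a different range for each gene) of the 10 related genes called in at least 1 comparison, in the 2 replicates of each stage; grey lines join stage means. Sgms2 and Enpp6 peak at 14d, Enpp2 and Nt5e are highest at 21d, and Ppa1 is lowest at 21d.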

How the data were processed

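RNA of 10 MC3T3-E1 samples was sequenced. The authors deposited 1 table of counts per gene with gene lengths and 1 of RPKM, for which the study's methods write FPKM. The submitters' processing notes name FastQC, TopHat2 2.0.9, R 3.0.1 and mm10, while the counting tool, annotation and use of strand are not given in the sources used here. The deposited RPKM values had been scaled to a number of reads per library that the total count exceeded 1.443 to 1.601 times. 14d A and 21d B were sequenced in 2 lanes each, and the authors' merged columns were used. These differed from the sum of the lanes for 13526 and 13582 genes, and how they were merged is not given in the sources used here.

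Groups were taken from the sample labels. Symbols matched 39547 of 40620 gene identifiers, and exons were read from GENCODE vM21. Counts as deposited were filtered with filterByExpr, scaled by TMM and tested in edgeR 4.0.16 (R 4.3.3) with the quasi-likelihood fit over 5 stages and all 10 samples. Standard errors were the log2 fold change divided by the root of F. Ratios used deposited RPKM without a pseudocount. Pearson's r used log2 CPM with a prior count of 2. On counts simulated for 14d against confluent over 20366 genes, 123 of 200 changed genes were called, 94 of the 104 with a mean of at least 1000 counts, and 6 unchanged genes.

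The 8 genes, the related and marker lists and the comparisons were chosen with earlier results of these data known. Named were all 8 genes, related genes called at least once beside whole-list counts, and the 2 genes nearest to each in pattern. Ppa2, Ggcx, Phospho2, Smpd2, Smpd4, Slc30a7 and the annexins were called in no comparison, and their values were chosen for mention after they were seen. Alternatives were DESeq2 1.42.0, limma 3.58.1 on log2(RPKM + 1) and log2(RPKM + 0.1), other scalings and thresholds, no filter, summed lanes, fewer samples, a replicate block and leaving out each library.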

Additional observations from a re-analysis of the deposited data

How the results depend on the processing

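The count of called genes among the 8 stayed within 1.5 times its value except as follows. At 24h against confluent, where 2 were called, limma-trend on log2(RPKM + 1) called 1, beside 178 of all 20795 genes. A 4-fold threshold called 0. An edgeR fit of only those groups called 0 of the 8 and 0 of all 19562 genes, with a lowest adjusted p of 0.074. At an unadjusted p under 0.05 that fit had 4 of the 8 and 1824 of all genes. DESeq2 over all groups called 2, beside 679 of 17834 genes. Some fits that left out 1 library called fewer than 2. At 14d against 24h, where 4 were called, a fit of only those groups called 2, beside 319 of all 19819 genes. Some fits that left out 1 library called fewer than 4. At 21d against 14d, where 3 were called, any fold change gave 5 and a 4-fold threshold 1. Of all 20808 genes, any fold change gave 784 higher and 1239 lower. Among single genes, changes under 0.2 on the log2 scale crossed 0. Ank at 14d against 24h was -0.07 with library size alone and both limma fits, -0.03 with no filter and -0.11 to 0.17 leaving out 1 library. Leaving out 1 library gave it -0.26 to 0.04 at 24h against confluent, -0.17 to 0.05 at 14d against confluent and -0.26 to 0.10 at 21d against subconfluent. Smpd3 at 24h against confluent was -0.07 and -0.09 with limma and -0.72 to 0.74 leaving out 1 library. The cause of these changes was not tested. Mgp at 21d against subconfluent fell under 2-fold with library size alone (0.90) and both limma fits (0.94).

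The replicate letters were taken as names. The deviations of A from B correlated between stages at -0.30 to 0.01, so no deviation shared by the letters was seen. Whether A and B were paired across stages cannot be decided from these values. With a replicate block, 2 of the 8 genes were called at confluent against subconfluent and 2 at 21d against 14d, Smpd3 being lost in each (adjusted p = 0.057 and 0.052), and 2, 4, 4 and 6 in the other comparisons. Of all 20808 genes, the block gave 213 and 731 calls, and 320, 1039, 2502 and 5550 in the other comparisons. The blocked ratio tests gave adjusted p values of 0.022 to 0.025. Alpl at 24h against confluent was 0.94 with log2(RPKM + 1), which understates low genes. Depth limits Enpp1, with 4 to 19 reads in 8 of the libraries.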
